A study of Homo sapiens with 4 samples.

Results

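The 9 genes described here, CLDN1, CLDN3, CLDN4, CLDN7, CLDN11, CLDN12, OCLN, TJP1 and F11R, encode parts of the tight junction. They were chosen by name, with their values on these arrays already known, and every probe that carries one of the names was taken. That gave 12 probes for 9 of the 27224 gene names on the array, 1 spot each. Because the genes were chosen with results of the same arrays in view, all values below are a description. RNA levels were read with 1-colour Agilent arrays in LNCaP and PC3, which are established human prostate cancer lines. LNCaP depends on androgen and PC3 does not. In each line 1 array was made from cells without treatment (control) and 1 from cells exposed to 10 µM of atorvastatin (ATO) for 24 h, and both lines were grown in RPMI medium with serum. ATO is a statin, which blocks HMG-CoA reductase and with it the synthesis of mevalonate and cholesterol. With 1 array in each of the 4 groups, no difference within a line or between the lines could be tested, and precision is limited by the number of arrays.

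Tight junctions seal the space between neighbouring epithelial cells near their apical side. Claudins span the membrane several times and form the strands, some of which seal while others leave pores for ions. Occludin (OCLN) shares this shape but belongs to the MARVEL family, F11R (JAM-A) is an adhesion protein of the immunoglobulin type, and TJP1 (ZO-1) is the scaffold under the membrane that ties claudins and occludin to actin. In the prostate they join the epithelial cells that line the glands, and cancers of epithelial origin often change which claudins they make.

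The probes decide what was seen of each gene, so the stretches that carry the later results are shown first. Each is the last 30 bases of the 60-base probe as the array design gives it, with AATAAA, the letters of the usual polyadenylation signal, in capitals. The first probes belong to the claudins that were lower in PC3 after ATO (CLDN11 and CLDN1). The next belongs to a claudin whose probe also holds these letters, and the OCLN pair to the gene whose probes gave different answers.
CLDN11: atctgtgcAATAAAataacagactgtctgc
CLDN1: atgggaagaAATAAAagcctacgtgttggt
CLDN3: tatttttcAATAAAagcctttcgttttgca
OCLN: gcaatcttctcagaaggcaaatgactttgg
OCLN, second probe: gcagattacaaaagtaagaagaatcattgc
AATAAA stood in 3 of the 12 probes, those of CLDN1, CLDN3 and CLDN11, against 7.67% of all 34127 probes. A polyadenylation signal in use stands near the end of a transcript, but whether these letters act as one was not tested. In the hg18 coordinates of the array design, the CLDN11 probe lies at chr3:171634518-171634577 on the plus strand and the CLDN1 probe at chr3:191506695-191506754 on the minus strand, 19.9 Mb apart. The CLDN3 probe lies at chr7:72821263-72821322 on the minus strand and the CLDN4 probe at chr7:72884843-72884902 on the plus strand, only 63.5 kb away. The first OCLN probe lies at chr5:68885271-68885330. The second covers chr5:68883142-68885185, a span of 2044 bases for a probe of 60, as for a probe across an exon junction, and the CLDN7 probe covers 165 bases at chr17:7104546-7104710. Exon and UTR annotation of hg18 was not used here.

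Across the 4 arrays, between 48.5% and 52.9% of the 43118 gene spots were well above background (the scanner software's call) and 0 were saturated. The labelled lines were borne out by their markers: KLK3 was at least 1490-fold and TMPRSS2 17.4-fold higher in LNCaP control, whereas CAV1 was at least 384-fold and VIM 152-fold higher in PC3 control. The epithelial markers KRT8, KRT18 and EPCAM were well above background on all 4 arrays. Of the markers of other cells, the leukocyte gene PTPRC was well above background only on LNCaP control, at 215 units on 1 of its 5 probes. The endothelial gene PECAM1 was so only in PC3, at 147 units in control and 389 with ATO. The fibroblast gene COL1A1 was well above background on all 4 arrays, at 76.1 to 121 units. Their part in the values below was not tested.

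In the untreated lines, the genes fell into those present in both lines and a pair seen only in PC3. CLDN11, best known from the myelin of oligodendrocytes and the barrier of Sertoli cells, gave 6.0 units on LNCaP control, 11.4 on LNCaP ATO, 1471 on PC3 control and 276 on PC3 ATO (intensity, before scaling between arrays). CLDN1, a sealing claudin of skin and other epithelia, gave 6.81, 12.7, 339 and 183 units in the same order. Neither was well above background on a LNCaP array and both were on both PC3 arrays, a pattern of 3.93% of all gene names. After scaling each array to the 75th percentile of its gene spots, CLDN11 was at least 45.6-fold and CLDN1 at least 10.5-fold higher in PC3 control than in LNCaP control. These bounds set the PC3 value against the lowest value that counted as well above background on LNCaP control, 27.4 units. With normexp background correction the bounds were smaller, at log2 differences of 4.03 for CLDN11 and 2.10 for CLDN1 against 5.51 and 3.39.

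The other claudins were measured in both lines. CLDN7, a claudin of simple epithelia that also lies along the lateral membrane, gave 17716 units on LNCaP control, 19625 on LNCaP ATO, 9053 on PC3 control and 10716 on PC3 ATO. CLDN3, a sealing claudin, gave 8133, 8830, 3537 and 4028 units in that order. CLDN12, a claudin whose tail lacks the end motif by which most claudins bind scaffolds, gave 965, 1417, 482 and 627 units. All 3 were lower in PC3 than in LNCaP, with both LNCaP arrays above both PC3 arrays. The log2 difference, PC3 control minus LNCaP control, was -1.21 ± 0.20 for CLDN7, -1.44 ± 0.20 for CLDN3 and -1.24 ± 0.21 for CLDN12, where the error is the one the scanner software estimates for the spots and does not cover differences between cultures. The second CLDN12 probe gave a log2 difference of -1.34 ± 0.26.

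CLDN4, which like CLDN3 is a receptor for the enterotoxin of Clostridium perfringens, went the other way. It gave 3726 units on LNCaP control, 4477 on LNCaP ATO, 8679 on PC3 control and 14181 on PC3 ATO, so both PC3 arrays lay above both LNCaP arrays. PC3 control exceeded LNCaP control by 0.98 ± 0.20 on the log2 scale (1.98-fold), just short of the 2-fold used between lines. CLDN3 and CLDN4, neighbours on chromosome 7, thus differed between the lines in opposite directions.

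The proteins that are no claudins were measured on all 4 arrays. OCLN gave 353, 387, 275 and 399 units on the arrays in the order given for CLDN4. Its log2 difference between the controls was -0.60 ± 0.22 (second probe -0.42 ± 0.24). The difference was 0.41 ± 0.20 for F11R (second probe 0.17 ± 0.21), with 3821, 4333, 5988 and 7561 units in that order. For TJP1 it was 0.14 ± 0.20, with 2636, 2431, 3413 and 2308 units. The last 2 signs turned when the arrays were scaled to the 50th percentile (-0.08 for F11R and -0.35 for TJP1), a scaling that moved the median of all genes to -0.53. In all, 5 of 9 genes (55.6%) differed at least 2-fold between the untreated lines, 2 higher and 3 lower in PC3. Over all 15237 genes with a value, 39.6% did so, 20.7% higher and 18.9% lower in PC3. With spike-in scaling, which moved the median of all genes to 0.38, the calls of CLDN3 (-0.94), CLDN7 (-0.70) and CLDN12 (-0.74) were lost and CLDN4 (1.48) was called higher. CLDN4 also passed 2-fold with quantile and cyclic loess normalization. CLDN7 was lost with cyclic loess, CLDN12 with normexp, and OCLN (-1.09) was called lower with the 50th percentile.

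**Figure D1:**
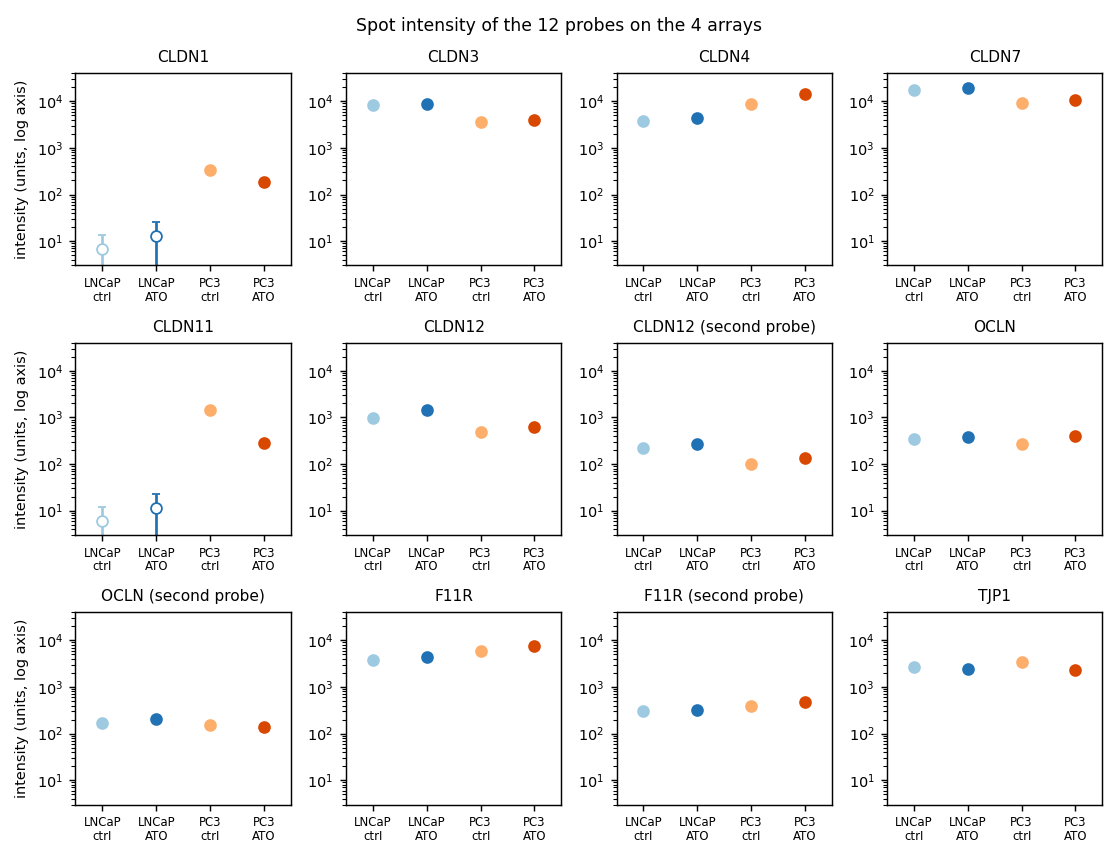
Spot intensity (units, log axis) of each of the 12 probes on the control (ctrl) and ATO arrays of each line, before scaling between arrays. Points are single spots, bars the scanner software's error (mostly within the point), and open points were not well above background; CLDN1 and CLDN11 are open in LNCaP and reach 339 and 1471 units in PC3 control.

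**Figure D2:**
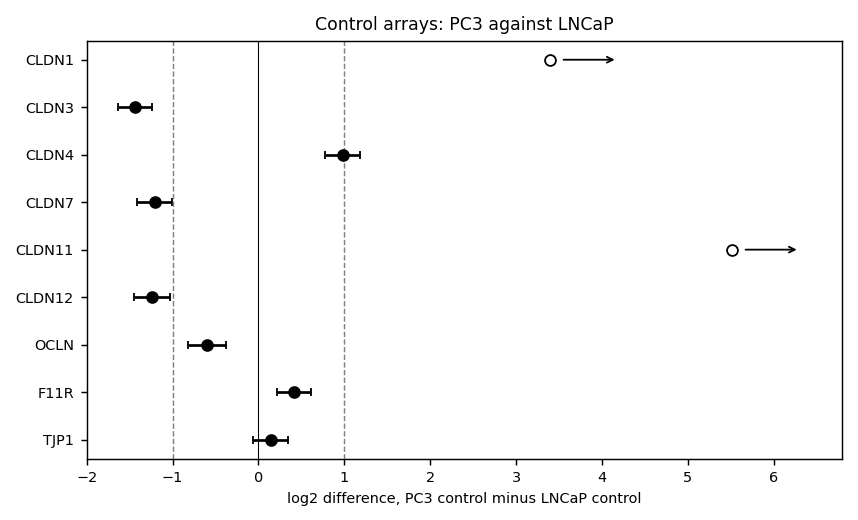
Log2 difference, PC3 control minus LNCaP control, for the probe that stands for each gene, with bars for the scanner software's error and dashed lines at 2-fold. Open points with arrows are lower bounds for CLDN1 (3.39) and CLDN11 (5.51); CLDN3, CLDN7 and CLDN12 lie below the lower line.

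The next comparison asked what 24 h of ATO did in each line. In LNCaP, 0 of the 7 genes with a value differed by 1.5-fold. Over all 13739 genes with a value, 4.77% did so, 2.79% higher and 1.97% lower, so a count of 0 among 7 is near that background. CLDN12 had the largest ratio, 0.46 ± 0.20 on the log2 scale, at 965 units in control and 1417 with ATO. Its second probe gave 0.22 ± 0.22, at 217 and 269 units. The brighter spot lay in a bright patch of the LNCaP ATO array, where its local background of 156 units was 1.55 times the median of that array, and whether this moved the ratio was not tested. CLDN4 (0.17), F11R (0.08), CLDN7 (0.05), OCLN (0.04) and CLDN3 (0.02) had log2 ratios within the scanner error of 0.20 to 0.21, and TJP1 stood at -0.21 ± 0.20. CLDN1 and CLDN11 had no ratio in LNCaP, since neither array was well above background.

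In PC3, 4 of 9 genes (44.4%) differed at least 1.5-fold between ATO and control, CLDN11 and CLDN1 lower and CLDN4 and OCLN higher. Over all 13815 genes with a value in PC3, 18.5% did so, 8.3% higher and 10.2% lower. CLDN11 fell from 1471 units in control to 276 with ATO, 5.14-fold lower after scaling (log2 ratio -2.36 ± 0.21). It ranked 4 from the lowest of the 12513 genes measured on both PC3 arrays. The CLDN11 spot on PC3 ATO also lay in a bright patch, with a local background of 150 units, 1.67 times the median of the array, and the part of this in the ratio was not tested. CLDN1 went from 339 to 183 units, 1.78-fold lower (log2 ratio -0.83 ± 0.23), and its local background on PC3 ATO, 84 units, was 0.933 times the median.

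CLDN4 was the member with the largest increase, from 8679 to 14181 units in PC3 (1.69-fold, log2 ratio 0.76 ± 0.20). Its spot on PC3 ATO had a local background of 172.5 units, 1.92 times the median of the array, and its part in the ratio was not tested. The OCLN probes gave different answers. The first went from 275 to 399 units (1.5-fold, log2 ratio 0.59 ± 0.22), whereas the second went from 150 to 136 units (-0.10 ± 0.29). With the median over both probes the log2 ratio of OCLN was 0.25, so its place among the genes past 1.5-fold rests on 1 probe. The remaining 5 genes stayed short of 1.5-fold. Of these, CLDN12 (0.43 ± 0.21, second probe 0.47 ± 0.28), F11R (0.39 ± 0.20, second probe 0.33 ± 0.21), CLDN7 (0.30 ± 0.20) and CLDN3 (0.24 ± 0.20) had positive log2 ratios, and TJP1 had a negative one (-0.51 ± 0.20), from 3413 units in control to 2308 with ATO.

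**Figure D3:**
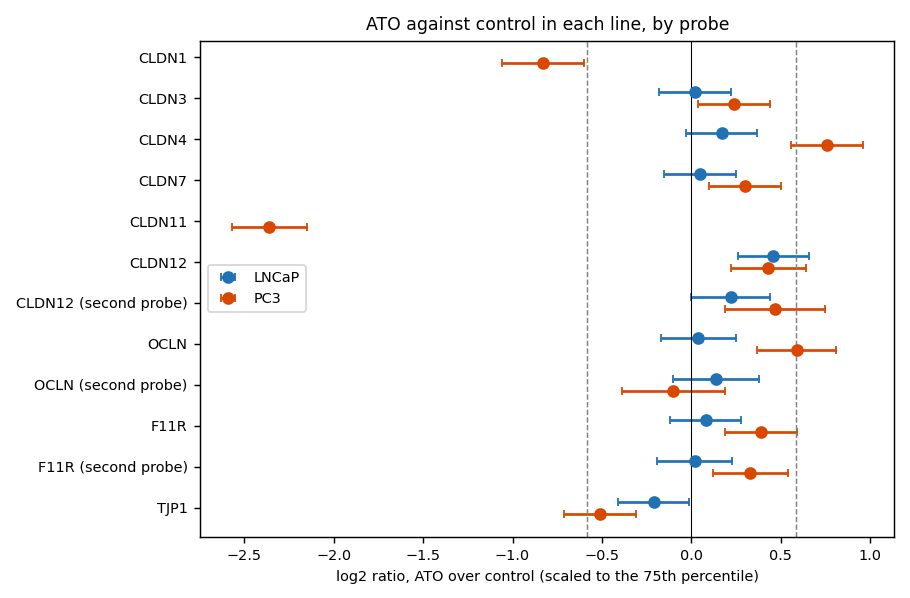
Log2 ratio of ATO over control for each of the 12 probes in LNCaP (blue) and PC3 (orange), after scaling to the 75th percentile, with bars for the scanner software's error and dashed lines at 1.5-fold. In PC3, CLDN11 (-2.36) and CLDN1 (-0.83) lie below the lower line and CLDN4 (0.76) above the upper one, and the OCLN probes stand apart (0.59 and -0.10).

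The median log2 ratio was 0.30 over the 9 genes with a value in PC3 and 0.05 over the 7 in LNCaP. It was 0.0 for all genes in each line. The 2 sets differ, since CLDN1 and CLDN11 had a ratio in PC3 only. The PC3 ratio exceeded the LNCaP ratio by 0.59 for CLDN4, 0.55 for OCLN, 0.30 for F11R, 0.24 for CLDN7 and 0.22 for CLDN3 on the log2 scale. It lay below it by 0.30 for TJP1, and CLDN12 was alike in both (0.43 in PC3 and 0.46 in LNCaP). With 1 array a group, the difference between the lines in their response was not testable. Technical copies of 1 probe on the same arrays had a median SD of 0.13 for the log2 ratio within 1 line. The differences between the lines draw on all 4 arrays, so their technical spread is larger, and it was not computed.

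The way of scaling moved these values, but the direction of the 4 PC3 calls held in every setting that gave them a value. CLDN11 ranged from -2.46 to -2.03, CLDN1 from -0.93 to -0.61 and CLDN4 from 0.66 to 0.95 in log2 ratio, all past 1.5-fold. OCLN ranged from 0.25 to 0.77 and fell short of 1.5-fold with spike-in scaling (0.49), with normexp background correction (0.48) and in the deposited table (0.57). When spots in bright local backgrounds were left out, CLDN11 and CLDN4 had no value, and CLDN1 and OCLN were the genes still past 1.5-fold. CLDN12 passed it with the 50th percentile (0.62), and TJP1 with spike-in scaling (-0.61) and normexp (-0.63).

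**Figure D4:**
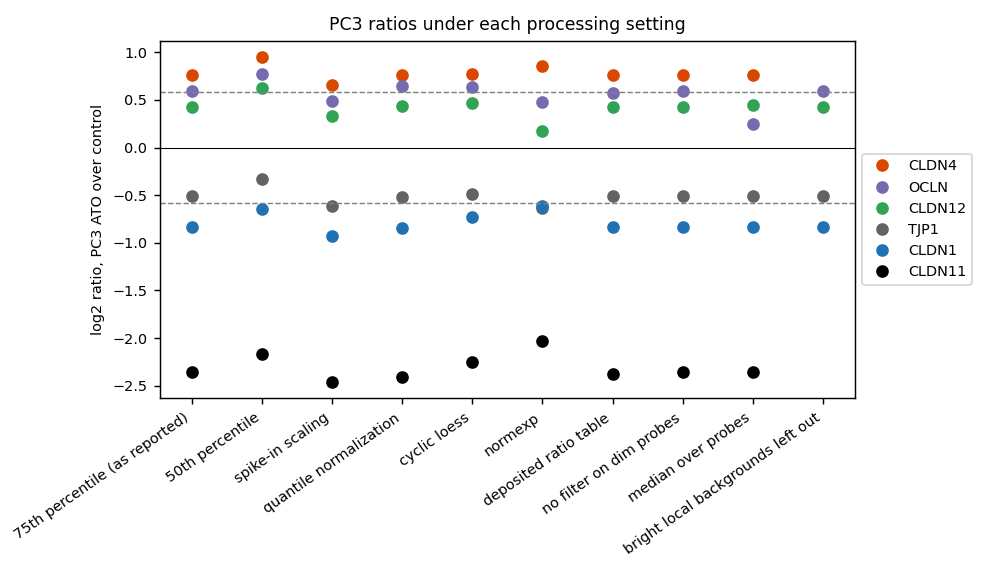
Log2 ratio of ATO over control in PC3 for 6 of the genes under the reported scaling and each alternative, with dashed lines at 1.5-fold. CLDN11 stays between -2.46 and -2.03 and has no point in the last column, nor has CLDN4, whereas OCLN crosses the upper line between settings.

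CLDN11 was followed further as the gene with the largest ratio. Among 1068 other genes well above background on the same PC3 arrays and on no LNCaP array, the 3 with the nearest pattern over the 4 arrays were PDE1C, PHACTR3 and PTX3. The distance (Euclidean, log2 scale, each gene centred on its own mean) was 0.37, 0.67 and 0.70. The LNCaP values in it were not well above background, so nearness in effect reflects level and ratio in PC3. The falls in PC3 given next were therefore fixed by the selection and are a description. In PC3, PDE1C, a calmodulin-dependent phosphodiesterase, went from 1458 to 355 units (log2 ratio -1.98). PHACTR3, a regulator of protein phosphatase and actin, went from 1374 to 432 units (-1.62). PTX3, a secreted pentraxin, went from 1604 to 521 units (-1.57).

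The promoters of the claudins furthest apart with ATO in PC3 (CLDN11, CLDN1 and CLDN4) and of CLDN3, the neighbour of CLDN4, are shown with letters that transcription factors are known to bind. Each is the 250 bases before the RefSeq start on GRCh38.p14, read in the direction of the gene, and for CLDN11 it belongs to the first of its starts. Capitals mark SP1 letters (GGGCGG or CCGCCC) and, in CLDN4, also AP-1 letters (TGANTCA).
CLDN11 (chr3:170418618-170418867, plus strand): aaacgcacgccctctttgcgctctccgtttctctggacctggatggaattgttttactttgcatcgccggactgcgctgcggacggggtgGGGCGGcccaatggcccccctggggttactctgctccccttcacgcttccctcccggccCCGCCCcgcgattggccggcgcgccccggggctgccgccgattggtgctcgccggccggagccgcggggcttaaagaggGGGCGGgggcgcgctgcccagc
CLDN1 (chr3:190322447-190322696, minus strand): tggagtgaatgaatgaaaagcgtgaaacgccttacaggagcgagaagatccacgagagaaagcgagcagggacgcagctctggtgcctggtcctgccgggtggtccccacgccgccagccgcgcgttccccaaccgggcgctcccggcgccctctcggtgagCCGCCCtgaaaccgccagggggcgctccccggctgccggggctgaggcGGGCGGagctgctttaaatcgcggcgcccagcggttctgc
CLDN3 (chr7:73770271-73770520, minus strand): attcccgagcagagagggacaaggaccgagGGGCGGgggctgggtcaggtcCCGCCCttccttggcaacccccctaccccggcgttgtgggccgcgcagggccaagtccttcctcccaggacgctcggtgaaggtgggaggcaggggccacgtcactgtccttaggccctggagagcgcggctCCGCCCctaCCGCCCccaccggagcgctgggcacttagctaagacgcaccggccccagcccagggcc
CLDN4 (chr7:73830746-73830995, plus strand): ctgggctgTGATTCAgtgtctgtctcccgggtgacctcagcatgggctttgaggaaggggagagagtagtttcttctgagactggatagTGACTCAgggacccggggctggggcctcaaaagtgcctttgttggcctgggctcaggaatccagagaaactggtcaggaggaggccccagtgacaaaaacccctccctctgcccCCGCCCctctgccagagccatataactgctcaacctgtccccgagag
The RefSeq table held 14 starts for 8 of the genes, all but F11R. SP1 letters stood in 10 of the 14 windows, against 42.6% of all 35116 windows of the same length, with 3 matches in CLDN11, 2 in CLDN1, 4 in CLDN3 and 1 in CLDN4. AP-1 letters stood in 1 window, that of CLDN4, which held 2 matches at 242 and 161 bases before the start, against 6.57% of all windows. The E-box letters CACCTG or CAGGTG, which repressors of the SNAI and ZEB families are known to bind, stood in 4 of the 14 windows, against 17.5% of all. The second CLDN7 start alone had 4 matches. TEAD letters (GGAATG or CATTCC) stood in 0 windows, against 11.9% of all, and TATA letters (TATAAA or TTTATA) in 0, against 10.7%. Both strands were searched, and 0 matches of different motifs overlapped in the 14 windows. GC content was 71.2% for CLDN11, 68.8% for CLDN1, 71.6% for CLDN3 and 58.8% for CLDN4, beside a median of 58.0% over all windows.

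The rest of the junction was taken from a list of 60 tight junction genes, of which 59 were on the array and 50 are not among the 9. Of 22 claudins on the array, 11 were well above background on none of the 4 arrays, 7 on all, 3 only in PC3 and 1 only in LNCaP. The third claudin seen only in PC3, beside CLDN1 and CLDN11, was CLDN14 (named after its values were seen), at 1024 units in control and 700 with ATO. It was at least 31.7-fold higher in PC3 control than in LNCaP control, and its log2 ratio with ATO was -0.50. All 3 claudins seen only in PC3 had a negative log2 ratio with ATO in PC3 (-2.36 to -0.50), whereas all 7 claudins seen on all 4 arrays had a positive one (0.14 to 0.76), a split noticed after the values were seen. Over all 13815 genes with a value in PC3, 6841 log2 ratios were positive and 6938 negative. The signs among all genes seen only in PC3 were not counted. Outside the claudins, the tight junction list did not show this split. ESAM (0.65) and MYLK (0.30, second probe -0.36) were also seen only in PC3, but were positive by the brightest probe. Both are given here with their ratios already known. Other genes seen on all 4 arrays had both signs, such as TJP1 (-0.51) and F11R (0.39). For the claudins, each sign held under the scalings tried. The range of the 7 came nearest to 0 with spike-in scaling (0.04 to 0.66) and that of the 3 with the 50th percentile (-2.17 to -0.31). With bright local backgrounds left out, only 5 of the 7 and 2 of the 3 had a value, with the same signs. The lowest of the 7 (0.14) was close to the SD of technical copies (0.13). In LNCaP the 7 were divided, 4 positive and 3 negative (-0.23 to 0.46).

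Of the 50 other genes, 32 had a value in PC3, where 6 (18.8%) were at least 1.5-fold higher with ATO and 0 lower, with a median log2 ratio of 0.21. The share over all genes in PC3 was 18.5%, so the share called in either direction is near the background. By direction, 18.8% were higher beside 8.3% of all genes, and 0 were lower beside 10.2%, a lean that was not tested. The 6 higher genes, named after their values were seen, included ARHGEF2, a RhoA exchange factor held at the junction (0.89), and the GTPase RHOA (0.78). The others were the scaffolds TJP3 (0.74) and PATJ (0.72), the adhesion protein ESAM (0.65) and the polarity protein CRB3 (0.59). The second probes of ARHGEF2 and PATJ gave 1.07 and 0.41, and the ESAM spot lay in a bright patch of PC3 ATO. In LNCaP 34 had a value and 2 (5.88%, beside 4.77% of all genes) were past 1.5-fold, both higher, at a median of -0.01. These were ROCK2, a kinase that acts on myosin (0.61, from 73.3 to 120 units, second probe 0.27), with its spot in a bright patch of LNCaP ATO, and JAM3 (also named after its values were seen), at 13.0 units in control and 103 with ATO (at least 3.51-fold higher). By the brightest probe, 0 genes of the list outside the 9 that were measured on both arrays of a line reached 2-fold there. The second ARHGEF2 probe did so in PC3 (1.07). Past 1.5-fold lower were the second probes of ROCK2 in PC3 (-0.83, brightest probe -0.03) and of 2 genes named after their values were seen. These were CXADR in PC3 (a bound of -1.67, brightest probe 0.08) and MARVELD3 in LNCaP (-0.63, brightest probe -0.24).

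Taking the whole list of 59, 10 of 41 genes with a value (24.4%) were past 1.5-fold in PC3, 8 higher and 2 lower, with a median log2 ratio of 0.24, beside 18.5% of all genes. In LNCaP it was 2 of 41 (4.88%), with a median of 0.02, beside 4.77% of all genes. By the brightest probe of each gene, the 2 lower genes in PC3 were CLDN11 and CLDN1. Between the untreated lines, 20 of 45 (44.4%) differed at least 2-fold, 9 higher and 11 lower in PC3, beside 39.6% of all genes. The 4 largest measured differences outside the 9 genes were PARD3, a polarity scaffold (log2 difference 5.29, second probe at least 5.20), CGNL1, paracingulin (-2.77), ROCK2 (2.33, second probe 2.15) and MARVELD2, tricellulin (-1.68). The PARD3 value rests on a dim LNCaP control value, 54.4 units, where the lowest well above background was 27.4. On LNCaP ATO, at 66.3 units, PARD3 was not well above background.

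Neighbouring junctions were set beside them. Of 11 adherens junction genes, 10 had a value in PC3, of which CDH2 (N-cadherin) was lower with ATO (log2 ratio -1.12, second probe -0.95) and JUP (plakoglobin) higher (0.66). Of 5 desmosome genes, DSC2 was higher (0.75). The shares called, 20.0% in each list, stand beside 18.5% of all genes in PC3. In LNCaP, 0 of 9 adherens and 0 of 5 desmosome genes with a value passed 1.5-fold, beside 4.77% of all genes. CTNNA1, the alpha-catenin that links cadherins to actin, gave 4264 and 5408 units in LNCaP but 12.3 and 12.2 in PC3, not well above background there and at least 96.5-fold lower in PC3 control. CDH1 (E-cadherin) had log2 ratios of 0.14 in LNCaP and 0.29 in PC3. These genes of neighbouring junctions were named after their values were seen.

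**Figure D5:**
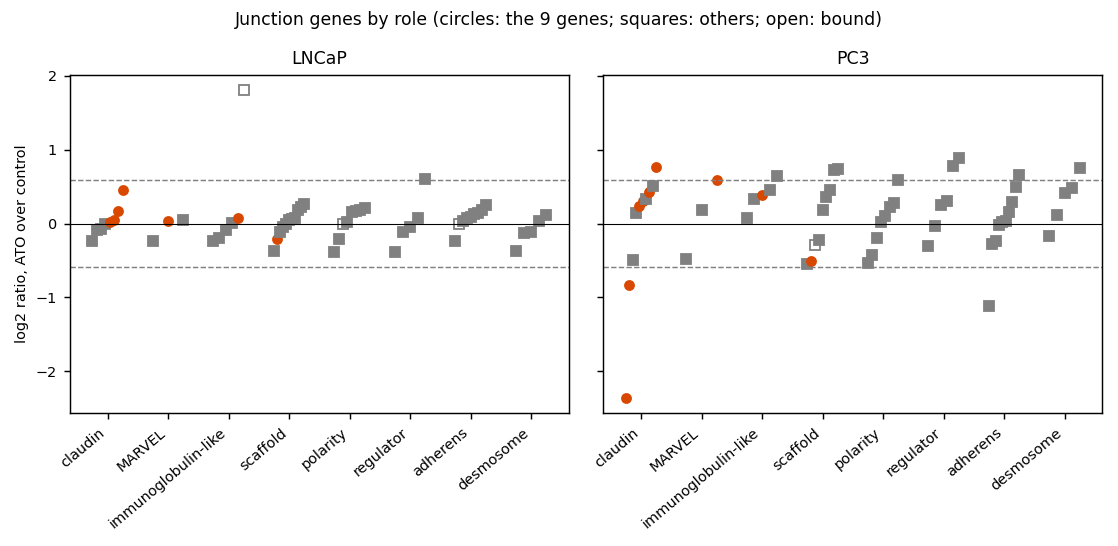
Log2 ratio of ATO over control for junction genes by role in LNCaP (left) and PC3 (right); circles are the 9 genes, squares the other genes of the lists, open symbols bounds (at 0 where the bound gives no fold), and dashed lines mark 1.5-fold. In LNCaP 2 squares and no circle lie outside the lines, and in PC3 CLDN11 at -2.36 is the lowest point.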

How the data were processed

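RNA of LNCaP and PC3 cells was measured on 4 Agilent arrays, 1 a group. The scanner files hold the intensity of each spot (linear), made by the authors in Agilent Feature Extraction 9.5.3.1. Per the file headers, background was subtracted, a spatial trend removed, and a surrogate written for spots not above background. The deposited table holds a ratio, which lay within 2% of the scanner's intensity divided by its 75th percentile taken over probes, for 99.4% to 100.0% of probes above 1.

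For the values reported, outlier spots were left out, log2 intensities of a probe's spots were averaged, and the log2 of the 75th percentile of the array's gene spots (653.7 to 770.8 units) was subtracted. The brightest probe stood for a gene. A gene had a value where it was well above background on at least 1 array compared (more than 50% of its spots). Where 1 array only was, the ratio is a bound, set to no change when under 1-fold. Thresholds were 1.5-fold for ATO and 2-fold between lines. No test was run. On simulated data with known changes the count script was tested before use.

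The members and lists were chosen with earlier results of these data known. Genes were named by rule: the 9 genes, others of the wider list past 2-fold in a line (0 in either line), the 4 largest control differences, the 3 genes nearest to the one with the largest ATO ratio, and the cell markers. Every other gene was named after its values were seen, as the text says at each. Alternatives were scaling to the 50th percentile or to spike-in spots, quantile and cyclic loess normalization and normexp (offset 50) in limma 3.58.1 under R 4.3.3, the deposited table, no filter on dim probes, the median over probes, leaving out spots whose local background exceeded 1.5 times the array's median, and thresholds of 2-fold and 4-fold. Tables and figures were made with python 3.11.15, pandas 2.3.3, numpy 2.4.6 and matplotlib 3.10.9.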

Additional observations from a re-analysis of the deposited data

How the results depend on the processing

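The count of the 9 genes past 1.5-fold in PC3 was 4, and it became 2 with bright local backgrounds left out and 1 (CLDN11) at a 2-fold threshold. In LNCaP it was 0, and became 1 with spike-in scaling (CLDN12, log2 ratio 0.60) and 2 with no filter on dim probes (CLDN1 and CLDN11, whose LNCaP spots were not well above background). Between the control arrays the count past 2-fold was 5, and became 3 with spike-in scaling (CLDN1, CLDN4 and CLDN11 higher, 0 lower) and 2 at a 4-fold threshold. Spike-in scaling moved the median of all genes to 0.14 in LNCaP, -0.10 in PC3 and 0.38 between the lines, and the 50th percentile to 0.18 in PC3. Of 222 log2 ratios of single genes under these alternatives, 57 moved by more than the SD of technical copies (0.13) and 0 reversed a call. The cause of these shifts was not tested. A fit of ATO over both lines with line as a block, which leaves 1 residual degree of freedom, was not run because the genes were chosen with their values known. With 1 array a group, no replicate could be left out. Signal over background limits what is said of CLDN1 and CLDN11 in LNCaP: their spots lay below the lowest values that counted as well above background, 27.4 units in control and 54.7 with ATO.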
